A study of Homo sapiens with 18 samples.

Results

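CXCL9 (ENSG00000138755), CXCL10 (ENSG00000169245) and CXCL11 (ENSG00000169248) are the interferon-inducible CXC chemokines, and their Ensembl identifiers matched 3 of the 63677 rows of a table of read counts. The table covers 18 libraries of THP-1, a human line of acute monocytic leukaemia cells, in 6 groups of 3. The conditions were TRAFD1 knockdown by siRNA (KD), a scrambled siRNA without a target (SCR) and no siRNA (WT). Cells were transfected with siRNA at 25 nM and 72 h later kept for 4 h in medium (unstimulated, libraries 1 to 3 of each condition) or with 10 ng/ml of LPS, a bacterial cell wall component (libraries 4 to 6). All groups are the same cell line, KD rests on 1 siRNA sequence, and the labels call WT untreated in one place and treated with the transfection mix in another, so that a difference between SCR and WT cannot be assigned to the siRNA or to the mix.

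The 3 proteins are secreted by monocytes and tissue cells and attract activated T cells and natural killer cells through a shared receptor, CXCR3. Interferon-γ and type I interferon are their best known inducers. CXCL10 in particular can also be raised directly by NF-κB, the family of transcription factors that LPS activates through its receptor TLR4. TRAFD1 is known as a feedback inhibitor of innate signalling, and the study had linked CXCL10 to TRAFD1 genetically in blood, which is why its level after TRAFD1 knockdown is of interest.

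The genes lie side by side on the minus strand of chromosome 4 of GRCh37. CXCL9 spans 76922428 to 76928662, CXCL10 begins 13608 bases further on and spans 76942271 to 76944650, and CXCL11 follows after another 10184 bases, from 76954835 to 76962568. All are protein-coding. The span of ART3, on the plus strand from 76932337 to 77035201, covers CXCL10 and CXCL11, but no annotated exon of another gene falls in the last 500 bases of any of the 3, the stretch in which the authors counted reads. ART3 itself had 0 to 6 counts per library.

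The 250 bases before each start site are shown because interferon and NF-κB signals are known to act on the promoters of such genes, and the windows differ in which of the 2 kinds of letters they hold. They are RefSeq sequences of GRCh38.p14, minus strand, at chr4:76007510-76007759 for CXCL9, chr4:76023498-76023747 for CXCL10 and chr4:76036071-76036320 for CXCL11. Capitals mark matches, on either strand, to the core of the interferon-stimulated response element (ISRE, GAAA, any 2 bases and GAAA again) and to the NF-κB consensus.
CXCL9: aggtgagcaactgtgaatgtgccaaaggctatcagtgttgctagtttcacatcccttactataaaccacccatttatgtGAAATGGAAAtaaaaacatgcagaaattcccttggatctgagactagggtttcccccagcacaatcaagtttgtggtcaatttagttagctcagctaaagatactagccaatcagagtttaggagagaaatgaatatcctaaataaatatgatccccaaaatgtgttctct
CXCL10: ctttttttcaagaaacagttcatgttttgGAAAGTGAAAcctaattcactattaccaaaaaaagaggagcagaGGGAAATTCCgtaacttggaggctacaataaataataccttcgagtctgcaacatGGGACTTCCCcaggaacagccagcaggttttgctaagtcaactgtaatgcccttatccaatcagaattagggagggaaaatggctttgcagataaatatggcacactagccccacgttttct
CXCL11: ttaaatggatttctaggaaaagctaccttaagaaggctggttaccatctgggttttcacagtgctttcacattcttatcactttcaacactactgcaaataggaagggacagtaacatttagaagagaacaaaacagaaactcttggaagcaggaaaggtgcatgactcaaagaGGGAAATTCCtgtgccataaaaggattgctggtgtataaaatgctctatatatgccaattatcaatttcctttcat

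Among the matches in capitals, CXCL10 holds an ISRE core and a pair of NF-κB matches and CXCL9 an ISRE core alone. CXCL11 has a single NF-κB match in capitals, the same 10 letters as the more distant of the pair in CXCL10. The CXCL11 window also holds a match, left in lower case, to the core of the interferon-γ activated site (GAS, TTCNNNGAA, N being any base). It reads TTCTAGGAA and lies at -240 to -232 from the start site. The CXCL9 and CXCL10 windows held no GAS core. The ISRE core occurred in 3.02%, the NF-κB consensus in 5.21% and the GAS core in 6.57% of 35116 promoter windows of 250 bases. The ISRE core and the NF-κB consensus occurred together in 0.117%. These are matches of letters in a short window, and no binding was measured.

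Total counts ran from 8206023 to 22344279 per library, and the floor, taken as 3 counts because a count of 0 allows up to that many, stood at 0.133 to 0.378 CPM (counts per 1000000 of the TMM-scaled library, not divided by gene length, since this 3′ method reads one end of each transcript). The floor covers counting error only, because no molecular identifiers were counted. TRAFD1, the targeted gene, had 20.5 ± 1.99, 23.7 ± 3.38 and 8.66 ± 3.13 CPM in unstimulated WT, SCR and KD and 17 ± 4.75, 22.7 ± 4.42 and 14.5 ± 1.12 CPM with LPS (mean ± SD, n = 3 each). KD differed from SCR in TRAFD1 by -1.45 on the log2 scale without LPS (edgeR adjusted p 0.0277) and by -0.65 with LPS (edgeR adjusted p 0.262, no overlap), so that against SCR the knockdown passed the threshold without LPS and not with it. Against WT, TRAFD1 in KD was at -1.23 without LPS (edgeR adjusted p 0.0016, no overlap). With LPS it was at -0.23 (edgeR adjusted p 0.563), and the KD and WT libraries overlapped. All 9 monocytic markers examined were detected, with a summed level of 458 to 645 CPM per library, whereas the 4 T cell markers summed to between 0.0599 and 1.27 CPM. IFNG, the interferon-γ gene, had 0 counts in all 18 libraries, which allows up to 3 counts in each. One library stood apart for CXCL10: unstimulated WT replicate 2 held 6 counts, or 0.544 CPM, the lowest level of all libraries. For CXCL11 it held 10 counts, or 0.907 CPM, between the other unstimulated WT libraries.

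CXCL10 was by far the most abundant of the 3 after LPS and CXCL9 was close to the floor in every group. Unstimulated, CXCL10 was measured at 3.73, 0.544 and 2.49 CPM in WT, at 7.72, 10.8 and 8.92 CPM in SCR and at 5.97, 4.87 and 3.96 CPM in KD. With LPS it reached 289, 318 and 304 CPM in WT, 295, 254 and 253 CPM in SCR and 245, 195 and 172 CPM in KD. Without LPS the 3 conditions did not overlap, in the order WT, KD, SCR. With LPS the KD libraries were all below the WT and SCR libraries, while WT and SCR overlapped. Of all genes without LPS, 22.6% did not overlap between SCR and WT, 24.3% between KD and WT and 15.1% between KD and SCR. With LPS these shares were 22.8%, 35% and 21.5%. How many genes separate all 3 conditions was not counted.

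CXCL11 followed at lower levels. Unstimulated libraries had 1.58, 0.907 and 0.666 CPM in WT, 2.04, 2.65 and 2.31 CPM in SCR and 3.08, 2.31 and 2.17 CPM in KD. With LPS the values were 18.8, 23.4 and 21 CPM in WT, 25.2, 23.5 and 24.0 CPM in SCR and 16.9, 18 and 15.5 CPM in KD. Here unstimulated WT lay below both siRNA conditions, which overlapped each other, and with LPS the order was KD, WT, SCR with no overlap. The shares of all genes without overlap, pair by pair, are those given for CXCL10.

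**Figure D1:**
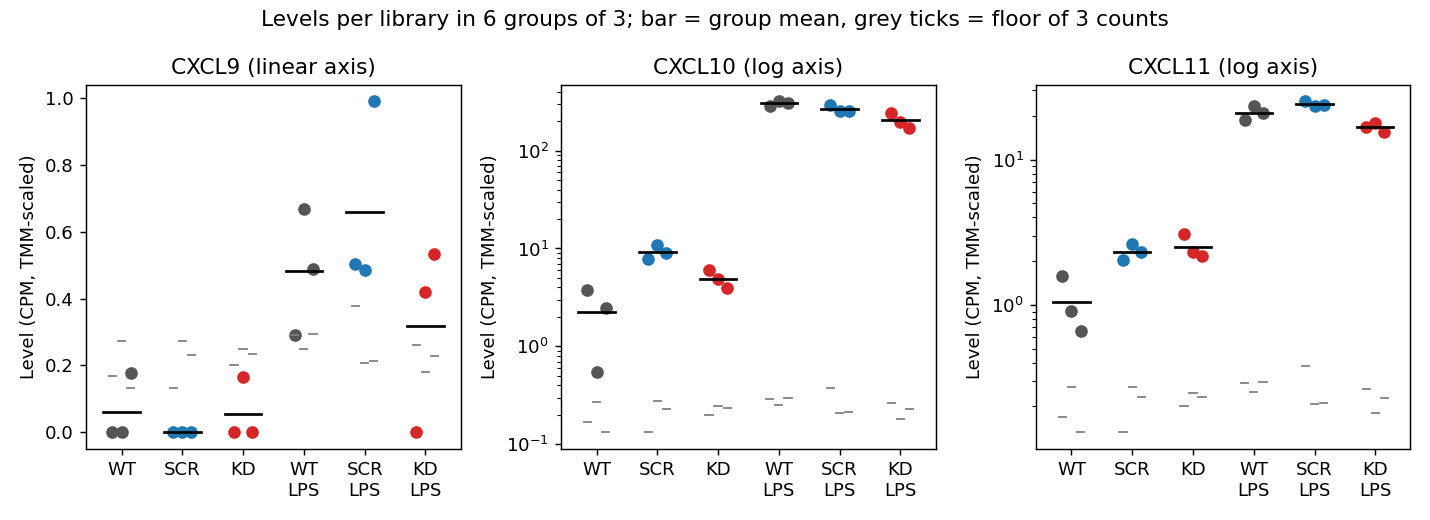
Level of each gene in every library (CPM, linear axis for CXCL9 and log axes for CXCL10 and CXCL11) in the 6 groups of 3; points are libraries, black bars group means and grey ticks the floor of 3 counts. CXCL10 climbs from between 0.544 and 10.8 CPM to between 172 and 318 CPM with LPS, and CXCL9 stays below 1 CPM.

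CXCL9 had 0, 0 and 4 counts in unstimulated WT, 0 in each unstimulated SCR library and 0, 2 and 0 in unstimulated KD. With LPS it had 3, 8 and 5 counts in WT, 4, 7 and 14 in SCR and 0, 7 and 7 in KD. A count was present in 8 of 9 libraries with LPS and in 2 of 9 without. The gene therefore did not pass the filter on low counts, and the model across all genes, described next, was not applied to it. An exact two-sided permutation test of its CPM within the 3 conditions, chosen after its values were seen, gave a mean difference of 0.449 CPM between LPS and unstimulated libraries (0.487 against 0.0381 CPM, p = 0.00125 over 8000 arrangements, whose smallest p is 0.00025). In SCR, whose unstimulated libraries held 0 counts, the mean CXCL9 level with LPS was 3.11 times a floor of 3 counts per library. The floor bounds the unstimulated side only, and the counting error of the LPS libraries is not in this value. In WT, 16 against 4 counts gave a ratio of 6.31 (95% counting interval 2.04 to 25.9), and in KD 14 against 2 counts gave 6.77 (1.55 to 61.3). These intervals pool the reads of 3 libraries and leave out the spread between libraries. Within each condition, the exact permutation p between libraries was 0.1 in WT and SCR, the smallest possible, and 0.4 in KD, whose libraries overlapped. CXCL9 was not tested between WT, SCR and KD, whose LPS libraries overlapped in CPM.

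The first comparison asked how the genes respond to LPS. The edgeR quasi-likelihood test was fitted to all 18 libraries and 16678 genes, with Benjamini-Hochberg adjustment and a threshold of 0.05. CXCL10 rose in all 3 conditions, by 6.96 on the log2 scale in WT (SE 0.28, 125-fold), by 4.89 in SCR (SE 0.25, 29.6-fold) and by 5.36 in KD (SE 0.26, 41.1-fold), which placed it at ranks 3, 15 and 13 among the genes tested. CXCL11 rose 20-fold in WT (log2 fold change 4.32, SE 0.24), 10.5-fold in SCR (3.39, SE 0.22) and 6.61-fold in KD (2.73, SE 0.21), ranks 31, 41 and 79. The highest edgeR adjusted p of the 6 values was 1.0e-08, against a background of 7.01%, 8.64% and 6.41% of all genes called higher with LPS in WT, SCR and KD. Every LPS library was above every unstimulated library of its condition for both genes, and 32.5%, 37.3% and 25.4% of all genes did not overlap in WT, SCR and KD.

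Because fold changes start from different baselines, the place of each gene among all genes shows the same response on another scale. In WT, CXCL10 moved from rank 12460 of 16678 by mean level to rank 573, and CXCL11 from 14354 to 6098. In SCR, CXCL10 moved from rank 8854 to 642, and in KD from 10553 to 862. LPS thus placed CXCL10 among the 1000 most abundant transcripts in each condition, while the best rank of CXCL11 was 5783, in SCR.

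Within a library, the counts of CXCL10 and CXCL11 can be set beside each other, and their balance moved with LPS. Of the summed counts of both genes, CXCL10 held 70.2%, 37.5% and 78.9% in unstimulated WT, 79.1%, 80.3% and 79.5% in SCR and 65.9%, 67.8% and 64.6% in KD. With LPS the WT libraries held 93.9%, 93.1% and 93.5%, the SCR libraries 92.1%, 91.5% and 91.3%, and the KD libraries 93.5%, 91.6% and 91.7%. Every LPS library was thus above every unstimulated library.

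The unstimulated KD and SCR libraries did not overlap in this share. As a ratio of CXCL10 to CXCL11, the geometric means were 1.95 in KD and 3.90 in SCR, a difference of -1.0 on the log2 scale with SDs of 0.11 and 0.05 (n = 3 each). The exact two-sided permutation p was 0.1, the smallest that 3 against 3 libraries can give. Against unstimulated WT, whose log2 ratios had an SD of 1.37, KD differed by 0.16, and the libraries overlapped. SCR differed from unstimulated WT by 1.16 (exact permutation p = 0.1). With LPS the ratios were 12 in KD and 11 in SCR (difference 0.13, exact permutation p = 0.5, -0.0059 without KD replicate 4). Against WT with LPS, KD was at -0.27 (exact permutation p = 0.2) and SCR at -0.39 (exact permutation p = 0.1). The 95% Wilson interval of a single unstimulated library was wide, for example 57.4% to 76.7% for KD replicate 2 and 73.2% to 83.9% for SCR replicate 1. The interval of every unstimulated KD library overlapped that of every unstimulated SCR library. The lowest upper end in KD was 73.38% (replicate 1) and the highest lower end in SCR 73.24% (replicate 1).

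**Figure D2:**
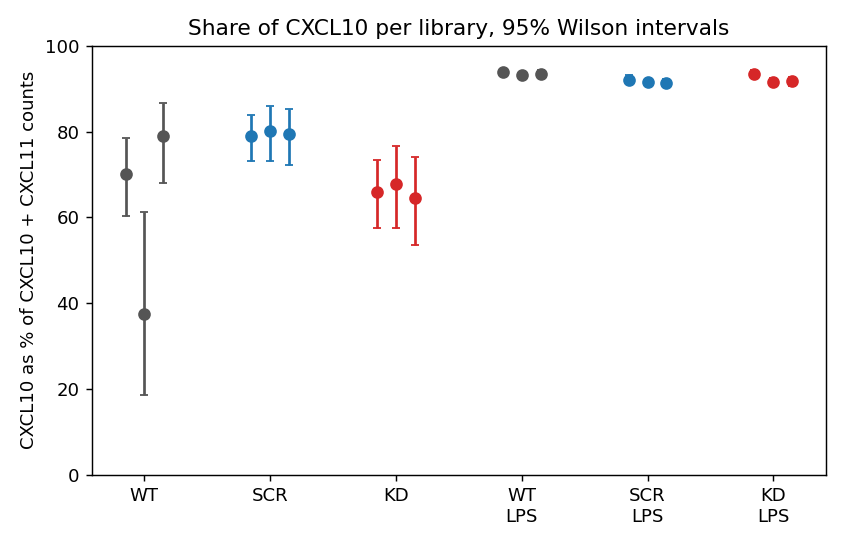
CXCL10 as a percentage of the summed CXCL10 and CXCL11 counts in each library, with 95% Wilson intervals for counting error, in 6 groups of 3. The unstimulated KD libraries lie between 64.6% and 67.8%, the SCR libraries between 79.1% and 80.3%, and all LPS libraries above 91%.

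SCR was compared with WT to see how the control transfected with siRNA differs from the control without it. Without LPS, CXCL10 was 3.71-fold higher in SCR than in WT (9.14 ± 1.53 against 2.25 ± 1.6 CPM, SD, n = 3 each; 1.89 ± 0.28 SE in log2, adjusted p 6.1e-04 by edgeR). CXCL11 was 2.19-fold higher (2.33 ± 0.303 against 1.05 ± 0.474 CPM; 1.13 ± 0.26 SE in log2, adjusted p 0.0212 by edgeR). Of all genes 1.78% were called higher in this comparison, and 22.6% did not overlap between the groups. The call of CXCL10 held in all 6 fits that left out a library, with adjusted p up to 0.0055. That of CXCL11 was lost without WT replicate 2 (log2 fold change 1.07, adjusted p 0.0506), WT replicate 3 (0.82, 0.140), SCR replicate 2 (1.04, 0.0652) and SCR replicate 3 (1.13, 0.0577), and in a fit to the 6 libraries alone (1.14, 0.176).

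With LPS neither gene was called between SCR and WT. The log2 fold change was -0.18 for CXCL10 (95% interval -0.60 to 0.23, edgeR adjusted p 0.729) and 0.20 for CXCL11 (-0.18 to 0.58, edgeR adjusted p 0.661). Of all genes 0.114% were called and 22.8% did not overlap, CXCL11 among them.

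KD against WT, which shares the WT libraries with the previous comparison, was the second comparison with cells that had no siRNA. Without LPS, CXCL10 was 2.04-fold higher in KD (4.93 ± 1.01 CPM, 1.03 ± 0.30 SE in log2, adjusted p 0.0308 by edgeR) and CXCL11 2.42-fold higher (2.52 ± 0.491 CPM, 1.27 ± 0.26 SE in log2, adjusted p 0.0033 by edgeR), where 5.85% of all genes were called higher and 24.3% did not overlap. The call of CXCL10 was lost without WT replicate 2 (log2 fold change 0.69, adjusted p 0.0510), WT replicate 3 (1.05, 0.0935) and KD replicate 1 (0.85, 0.104). A fit to the libraries of the 2 groups alone called neither CXCL10 (1.14, adjusted p 0.240) nor CXCL11 (1.31, adjusted p 0.150). With LPS the direction was the opposite, and no call was made at -0.57 for CXCL10 (SE 0.20, edgeR adjusted p 0.0720) and -0.32 for CXCL11 (SE 0.18, edgeR adjusted p 0.272), where 10.8% of all genes were called and 35% did not overlap, among them both chemokine genes. The outcome for CXCL10 depended on the fit: the libraries of the 2 groups alone gave -0.60 (SE 0.10, adjusted p 3.2e-04) and a fit that kept genes of low counts gave -0.58 (adjusted p 3.4e-05). It was called in 3 of 7 alternative fits and in 0 of 6 fits without a library.

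KD against SCR sets the TRAFD1 siRNA beside an siRNA without a target. Without LPS, CXCL10 was at a 45.0% lower level in KD (-0.86 ± 0.27 SE in log2, 95% interval -1.41 to -0.31), and its highest KD library, 5.97 CPM, lay under the lowest SCR library, 7.72 CPM. The adjusted p was 0.172 by edgeR, short of the threshold that 0.066% of all genes passed, while 15.1% of all genes did not overlap. In the fit that kept genes of low counts the difference was -0.87 with an adjusted p of 1.2e-05. That was the only call among 7 alternative fits, and 0 of 6 edgeR fits without a library called it (adjusted p 0.105 to 0.319). For CXCL11 no difference was called, with a value in log2 of 0.14 (95% interval -0.36 to 0.64, edgeR adjusted p 0.855) that turned to -0.033 without KD replicate 1.

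With LPS, both genes were at lower values in KD than in SCR in all 3 libraries. CXCL10 was 23.6% lower (204 ± 37.0 against 267 ± 23.8 CPM, log2 fold change -0.39, 95% interval -0.81 to 0.031, edgeR adjusted p 0.461) and CXCL11 30.4% lower (16.8 ± 1.26 against 24.2 ± 0.855 CPM, -0.52, 95% interval -0.90 to -0.14, edgeR adjusted p 0.264; SD, n = 3 each). Neither passed the threshold, and 21.5% of all genes did not overlap in this comparison. Across all genes 0 were called by edgeR, 1963 had an unadjusted p under 0.05, DESeq2 called 137 and the fit without a filter 425. That last fit called CXCL10 (-0.40, adjusted p 0.0449), the only call among 7 alternative fits, and 0 of 6 fits without a library called it.

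**Figure D3:**
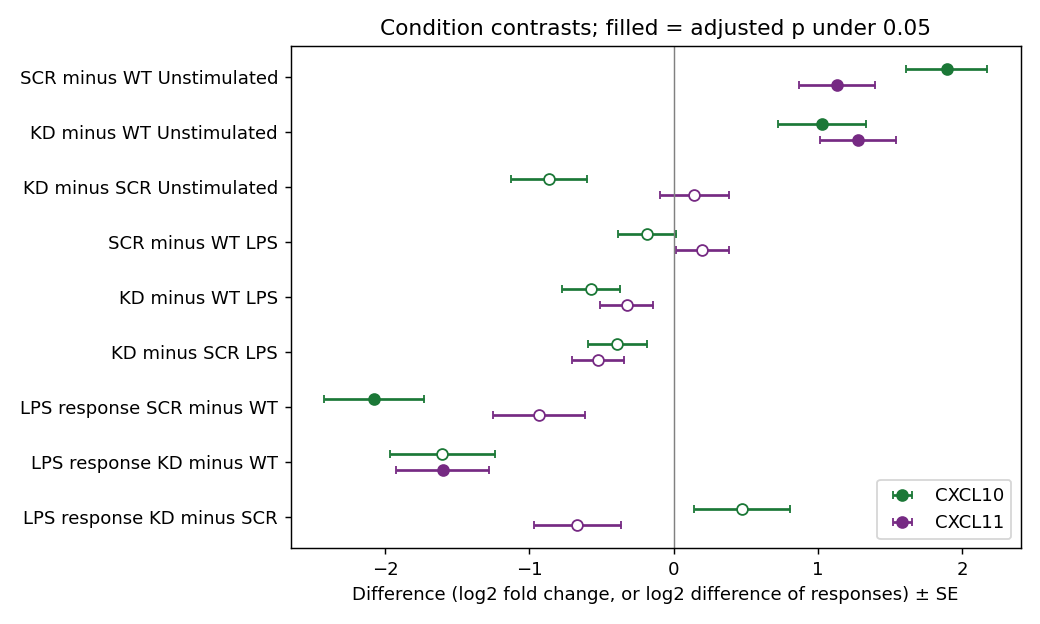
Fitted log2 differences ± SE of CXCL10 (green) and CXCL11 (purple) between conditions without LPS, with LPS and between LPS responses; filled points have an adjusted p under 0.05. Both genes are above 0 for SCR and KD against WT without LPS, and for KD against SCR without LPS CXCL10 lies at -0.86 and CXCL11 at 0.14.

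Differences between the LPS responses were tested as interactions. The response of CXCL10 was smaller in SCR than in WT by 2.07 on the log2 scale (interaction -2.07, SE 0.35, edgeR adjusted p 0.0074), where 0.216% of all genes were called with a smaller response, and it was called in all 12 fits that left out a library (-2.53 to -1.73, highest adjusted p 0.0353). For CXCL11 the same difference was -0.93 (SE 0.32, edgeR adjusted p 0.384). In KD against WT the response of CXCL11 was smaller (-1.6, SE 0.32, edgeR adjusted p 0.0326; 0.3% of all genes), a call lost in 7 of 12 fits without a library, the furthest without unstimulated WT replicate 3 (-1.29), the others being WT replicates 5 and 6 and KD replicates 2, 4, 5 and 6. CXCL10 had nearly the same value there (-1.6, SE 0.36) and did not pass (edgeR adjusted p 0.0613), although it did with DESeq2 (-1.69, adjusted p 0.0138). Between KD and SCR neither response differed past the threshold, at 0.47 for CXCL10 (95% interval -0.22 to 1.17, edgeR adjusted p 0.753) and -0.67 for CXCL11 (-1.30 to -0.038, edgeR adjusted p 0.639). For all genes, edgeR called 0 in this contrast, with 1274 at an unadjusted p under 0.05, DESeq2 called 0 and the fit without a filter 132. In the interactions with WT, the unstimulated levels differed by more on the log2 scale than the LPS levels did.

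The receptor and the inducers were then examined. CXCR3 had 7 to 39 counts per library, 0.488 to 2.92 CPM, and was called in no contrast. IFNB1, the type I interferon gene that TLR4 signalling is known to switch on, ran from 0.248 to 4.79 CPM, the highest value in SCR replicate 5 with LPS, and was called in no contrast. IFNL1, a type III interferon, was one of the 2 of 10 interferon genes with enough counts to be tested. It rose with LPS in WT (log2 fold change 1.35, edgeR adjusted p 0.016), a call lost without unstimulated WT replicate 2, while LPS against unstimulated stood at -0.16 in SCR (edgeR adjusted p 0.817) and -0.40 in KD (edgeR adjusted p 0.502). It was higher in unstimulated KD than in WT (4.01 ± 0.967 against 1.46 ± 0.745 CPM, SD, n = 3 each; 1.42, edgeR adjusted p 0.0143).

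Of 12 interferon receptor, JAK and STAT genes tested, LPS raised 2 in WT, 4 in SCR and 1 in KD. None of the 12 was called lower in these 3 edgeR contrasts. Of all genes 7.01%, 8.64% and 6.41% were called higher with LPS in WT, SCR and KD. Between KD and WT with LPS, 1 was higher and 4 were lower, beside 6.29% and 4.55% of all genes. IFNGR2, a chain of the interferon-γ receptor, rose in each (1.23, 0.96 and 1.08 on the log2 scale in WT, SCR and KD, the highest edgeR adjusted p 2.5e-08). IRF1, a transcription factor that binds ISRE-like sites, rose with LPS by 0.70, 0.43 and 0.41 in WT, SCR and KD (edgeR adjusted p 4.1e-05, 0.0055 and 0.012). With LPS it was lower in KD than in WT (97.2 ± 1.48 against 143 ± 1.16 CPM, -0.56, edgeR adjusted p 0.0029), and against SCR it was at -0.34 (edgeR adjusted p 0.217).

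Other interferon-induced genes, of which 31 of 33 were tested, rose with LPS in many cases. Of these 31, 21 rose in WT, 18 in SCR and 13 in KD, beside 7.01%, 8.64% and 6.41% of all genes. Among them were CCL2, a monocyte chemokine (2.99, 2.74 and 2.76 on the log2 scale), and the guanylate-binding protein genes GBP1 (3.54, 2.50 and 1.89) and GBP2 (2.92, 2.83 and 2.28), all with edgeR adjusted p of at most 9.9e-06, and CCL8, another monocyte chemokine (3.81, 5.13 and 5.04, the highest edgeR adjusted p 4.0e-04). WARS1, a tryptophanyl-tRNA synthetase gene, fell in SCR (-0.51) and in KD (-0.53), with edgeR adjusted p 6.8e-04 and 7.1e-04, where 8.56% and 5.05% of all genes were called lower. In unstimulated SCR against WT 2 of 31 were called higher, ISG20 (0.42, edgeR adjusted p 0.015) and GBP1 (1.00, edgeR adjusted p 0.0437), where 1.78% of all genes were. The count was 5 without the filter on low counts, 4 with DESeq2 and 1 without WT replicate 2. The median log2 difference of the 31 was 0.094, beside 0.0057 for all genes. KD against WT called 6 higher and 1 lower without LPS, led by IFIT2 (0.78, edgeR adjusted p 7.4e-04), where 5.85% of all genes were called in each direction, and 4 higher and 3 lower with LPS, led by CMPK2 (-0.44, edgeR adjusted p 0.0029), where 6.29% of all genes were called higher and 4.55% lower.

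The list of NF-κB genes held the subunits NFKB1, NFKB2, REL, RELA and RELB and the inhibitors NFKBIA and NFKBIE. Of 7 tested, 7 rose with LPS in WT and 6 each in SCR and KD, beside 7.01%, 8.64% and 6.41% of all genes. Of the 7, 5 were higher in unstimulated SCR than in WT, beside 1.78% of all genes: NFKBIA (0.63), RELB (1.19), NFKBIE (0.77), NFKB1 (0.65) and NFKB2 (0.75), with edgeR adjusted p from 3.7e-04 to 0.0031. Their LPS response was called smaller in SCR than in WT (NFKB2 -1.29, RELB -1.67, NFKBIA -0.63, NFKBIE -0.78, NFKB1 -0.77, highest edgeR adjusted p 0.037), while 0 of 31 interferon-induced genes were called there (1 by DESeq2 and 1 without WT replicate 2) and 0.216% of all genes were called smaller. The interaction uses the same unstimulated libraries as the comparison without LPS, so a gene higher in unstimulated SCR tends to have a smaller response by construction, and the second count is not independent of the first. This holds for CXCL10 as well. Both NF-κB counts were again 5 without WT replicate 2. For the LPS response of KD against WT, 3 of 7 NF-κB genes and 2 of 31 interferon-induced genes were called smaller, beside 0.3% of all genes. The interferon-induced genes were GBP1 (-1.65, edgeR adjusted p 0.037) and ISG20 (-0.60, edgeR adjusted p 0.047). That interaction shares its unstimulated libraries with KD against WT without LPS in the same way. Between KD and WT without LPS, 4 of 7 were higher, RELB by 0.76 and NFKBIE by 0.63 (edgeR adjusted p 0.0053 and 0.0012; 5.85% of all genes), and with LPS 3 were lower (4.55% of all genes), RELA by -0.60, RELB by -0.57 and NFKBIA by -0.30 (edgeR adjusted p 0.0037, 0.0313 and 0.0334). RELB, for example, had 80.3 ± 21.4 CPM in unstimulated WT and 182 ± 10.8 in SCR, and with LPS 415 ± 16.2 in WT and 297 ± 45.2 in SCR (SD, n = 3 each). No test compared the lists with each other.

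**Figure D4:**
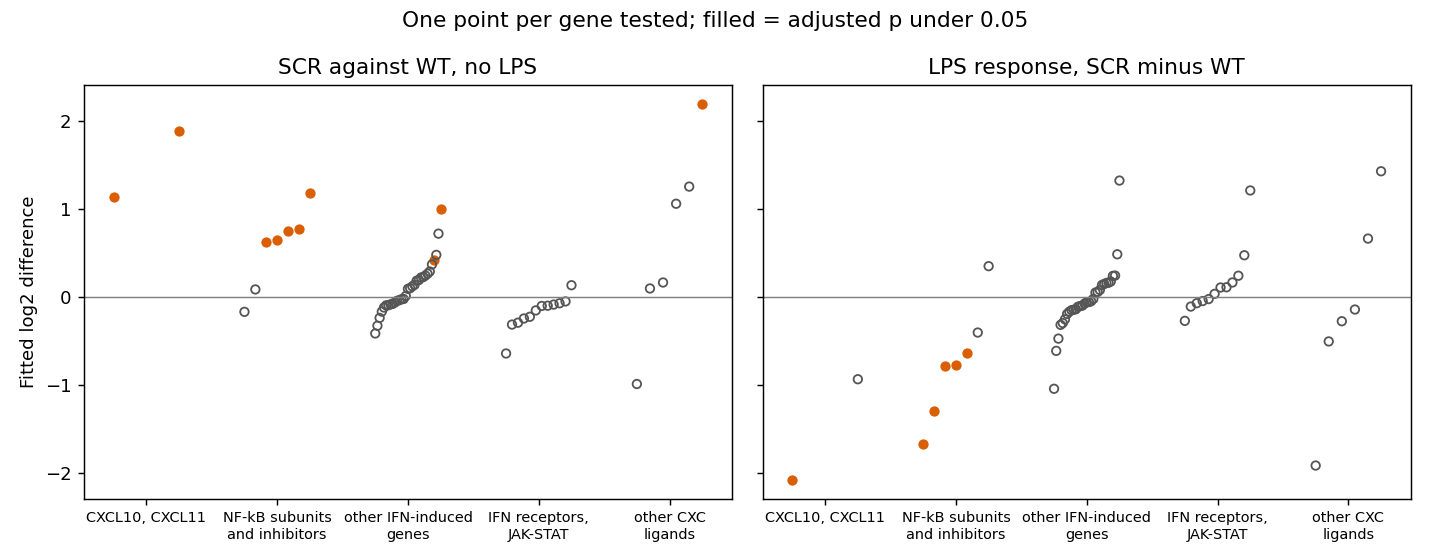
Fitted log2 difference of each gene tested in 5 gene groups, for unstimulated SCR against WT (left) and for the LPS response of SCR minus that of WT (right); filled points have an adjusted p under 0.05. CXCL10 and 5 of 7 NF-κB genes are filled above 0 on the left and below 0 on the right, and 2 and 0 of 31 other interferon-induced genes are filled. Both panels use the same unstimulated libraries.

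Among the other CXC ligands, which include the neutrophil-attracting chemokines of the same chromosome, 6 of 13 were tested. Of these 6, 4 rose with LPS in each condition (CXCL1, CXCL2, CXCL3 and CXCL8), beside 7.01%, 8.64% and 6.41% of all genes. CXCL1, for example, rose by 6.02, 4.11 and 4.49 on the log2 scale in WT, SCR and KD. CXCL1 was also called higher in unstimulated SCR than in WT (2.19, edgeR adjusted p 0.041). Of 11 tested genes of the TLR4 and IRF branch, 1 was called between unstimulated SCR and WT, beside 1.78% of all genes called higher. This was CD14, the LPS co-receptor (35.4 ± 6.64 against 16.1 ± 4.92 CPM, SD, n = 3 each; 1.14, edgeR adjusted p 0.0031). KD against WT without LPS called CD14 higher (0.72, edgeR adjusted p 0.0232) and TLR4 lower (-0.96, edgeR adjusted p 0.0070), beside 5.85% of all genes in each direction. With LPS it called IRF8 higher (1.32, edgeR adjusted p 0.0314) and IRF1 lower, beside 6.29% and 4.55% of all genes. Of 8 tested inhibitors, among them SOCS1 and SOCS3, feedback inhibitors of JAK kinases, only TRAFD1 itself was called between KD and SCR. That call was without LPS, where 0.066% of all genes were called. With LPS, 2, 3 and 4 of the 8 rose in WT, SCR and KD, beside 7.01%, 8.64% and 6.41% of all genes. SOCS3 rose with LPS in SCR and KD (2.48 and 1.90, edgeR adjusted p 8.7e-04 and 0.0071). TRAFD1 was also among those that rose in KD (0.73, edgeR adjusted p 0.0456). Of the 8 other genes within 100000 bases of the cluster, 3 were tested. The 2 calls were an LPS rise of SDAD1 in SCR (0.40, edgeR adjusted p 0.049) and of NUP54 in KD (0.74, edgeR adjusted p 0.027), beside 8.64% and 6.41% of all genes.

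Finally, the genes whose pattern over the 18 libraries lay closest were listed, by the root mean square difference of log2 CPM centred on each gene's mean. For CXCL10 these were the CC chemokine genes CCL4L2 (0.61) and its near-identical copy CCL4L1 (0.61), whose reads may not be told apart, ENSG00000129277, for which the annotation gives no symbol (0.62), TNFAIP6, a hyaluronan-binding protein gene (0.62), and SHROOM3 (0.96). For CXCL11 they were TNFAIP3, a ubiquitin-editing inhibitor of NF-κB (0.39), CCL2 (0.44), ZC3H12A, an RNase that degrades cytokine transcripts (0.46), ICAM1, an adhesion molecule (0.47), and HMOX1, haem oxygenase (0.47). Neither list shared a gene with the other, and CCL2 was the only one from the list of interferon-induced genes. ICAM1 had 2.39 ± 1.06, 6.75 ± 1.40 and 6.52 ± 1.29 CPM in unstimulated WT, SCR and KD and 47.6 ± 5.32, 49.1 ± 2.71 and 43.0 ± 4.94 CPM with LPS (SD, n = 3 each).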

How the data were processed

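The authors made QuantSeq 3′ libraries, aligned cleaned reads to GRCh37 with HISAT and counted them with featureCounts over the last 500 bases of each Ensembl 75 gene; whether strand was used is not given in the sources used here. The deposited values are raw read counts per gene; 63677 genes, 55665 with a GENCODE v44lift37 symbol. Rows without a gene and unused value columns numbered 0.

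Genes were filtered with filterByExpr (16678 left) and fitted with 1 mean per group in edgeR 4.0.16 (R 4.3.3; TMM, quasi-likelihood F test, prior count 0.125, Benjamini-Hochberg over all genes, threshold 0.05). The 12 contrasts were 6 pairs of conditions, 3 LPS responses and 3 interactions. SE is the fold change divided by the root of F, and 95% intervals use the residual and prior degrees of freedom. Log2 CPM for pattern likeness used a prior count of 2. Scripts were tested on simulated data.

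Named genes were the members, TRAFD1, CXCR3, IFNB1, IFNG and ART3, up to 3 genes per list and contrast with the smallest adjusted p, and the 5 closest in pattern. RELB's and ICAM1's levels, WARS1 and the NF-κB genes beyond 3 were chosen after their values were seen. Members and lists were chosen with earlier results of these data known. Lists were described by counts, with no set test.

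Treatments were done in triplicate, and nothing says the cultures were separate experiments, so p-values measure the spread between these libraries. Deviations from group means correlated by replicate number for SCR and WT with LPS (0.163 to 0.261, every pair over 0.1), and not in every pair of the other comparisons. Alternatives were RLE or raw totals, no filter, DESeq2 1.42.0, the libraries of a contrast alone, a prior count of 2, a replicate block and leaving out each library.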

Additional observations from a re-analysis of the deposited data

Results flagged for a closer look

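Differences between conditions in the LPS response were found for both tested genes, each by an interaction test. The response of CXCL10 differed between SCR and WT by -2.07 ± 0.35 SE in log2 (adjusted p 0.0074 by edgeR), and that of CXCL11 between KD and WT by -1.6 ± 0.32 SE (adjusted p 0.0326 by edgeR). Unstimulated WT, the shared baseline, held 6, 56 and 66 counts of CXCL10 and 10, 15 and 28 of CXCL11, so that these values rest on few reads, and the part of counting error in them was not tested. With 3 libraries per group, outliers within groups were not tested.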

How the results depend on the processing

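Of the 24 tests of CXCL10 and CXCL11, 24 kept their direction and side of the threshold with raw library totals and 24 with a prior count of 2, 23 each with RLE size factors and DESeq2, 20 without the filter on low counts and 19 with the libraries of the contrast alone; the cause of each change was not tested. Without the filter, CXCL10 passed for KD against SCR unstimulated (-0.87) and with LPS (-0.40), for KD against WT with LPS (-0.58) and for the KD minus WT response (-1.6). The latter also passed with RLE (-1.64) and DESeq2 (-1.69). With the libraries of the contrast alone, calls were lost for KD against WT unstimulated (CXCL10 1.14, CXCL11 1.31), SCR against WT unstimulated (CXCL11 1.14) and the KD minus WT response of CXCL11 (-1.6), and CXCL10 was called for KD against WT with LPS (-0.60). A replicate block, for numbers that in these comparisons did not pair the samples, called CXCL10 for KD against WT with LPS (-0.59) and in the KD minus WT response (-1.61), and changed no other call of the 18 tested. Leaving out a library gave -0.033 to 0.24 for CXCL11 in KD against SCR unstimulated, 0.69 to 1.49 for CXCL10 in KD against WT unstimulated, 0.82 to 1.59 for CXCL11 in SCR against WT unstimulated, and -2.06 to -1.26 (CXCL10) and -2.06 to -1.29 (CXCL11) for the KD minus WT response. The log2 ratio of CXCL10 to CXCL11 ran from -0.60 (without WT replicate 2) to 0.71 for KD against WT unstimulated and from -0.0059 (without KD replicate 4) to 0.20 for KD against SCR with LPS. CXCL9 kept its side in 18 fits without a library. Of 108 list counts, 30 moved by over 1.5 times without the filter and 13 with DESeq2; for other interferon-induced genes in unstimulated SCR against WT the 2 calls became 5 and 4. CXCL9, at 0 to 14 counts per library, did not pass the filter on low counts, and unstimulated WT held 6 to 66 counts of CXCL10 and CXCL11.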

Other observations

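SHROOM3, an actin-binding protein gene known mainly from epithelia, was among the genes closest in pattern to CXCL10 and lies on the same chromosome, from 77356382 to 77704406 of GRCh37, 393813 bases beyond the end of CXCL11. It had 0.0975 ± 0.0134, 0.0404 ± 0.0386 and 0 CPM in unstimulated WT, SCR and KD, at or under the floor, and 17.2 ± 2.99, 10.8 ± 1.16 and 9.96 ± 2.17 CPM with LPS (SD, n = 3 each). The genes tested within 100000 bases of the cluster did not show such a rise. It was picked for its likeness over these libraries, so no test was made.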
